A study of Homo sapiens with 6 samples.

Results

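NFKB2 and RELB encode partner subunits of the transcription factor NF-kB, and TNFAIP2 and CD14 belong to the inflammatory genes read beside it. These 4 genes were taken by name from a set of 10, and the other 6 (NFKB1, REL, NFKBIA, NFKBIE, TNFAIP3 and CXCL8) are not rows of the table used here and were not analysed. The table holds 2257 rows, 2206 of them after identical copies of a symbol were counted once. Expression was measured by poly(A) RNA-seq in Caco-2, a line of human colorectal adenocarcinoma cells that serves as a model of intestinal epithelium. All 6 samples carry the genotype label WT, and they fall into 3 control samples and 3 samples after hypoxia and reoxygenation (H/R), in which cells were kept at low oxygen and then returned to normal oxygen to model, in culture, the injury of an intestine that loses and regains its blood flow. The sources used here do not give the reoxygenation time of the sequenced cells, whether any sample received a control siRNA, or whether the replicates came from separate cultures. The p-values therefore read only sample-to-sample spread, possibly technical, and a difference in transfection between the groups cannot be told apart from H/R.

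NF-kB is a family of dimeric transcription factors. In the canonical arm, IkB proteins hold dimers of RELA and the NFKB1 product in the cytoplasm until the IKK complex marks IkB for degradation. In the non-canonical arm, the NFKB2 precursor p100 is cut to p52, which acts as a dimer with RELB. The NFKB2 and RELB genes are themselves known targets of NF-kB, as are genes of several of its inhibitors. CD14 is a co-receptor that hands bacterial lipopolysaccharide to the Toll-like receptor 4 complex, and TNFAIP2 was first described as a gene induced by tumor necrosis factor. In intestinal epithelium, NF-kB signaling is known both for inflammatory gene expression and for epithelial survival and barrier upkeep.

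Levels are in FPKM, a fragment count scaled to transcript length and library size. Changes are H/R minus control differences of log2(FPKM + 1) with the standard error (SE), tested with limma over all 2034 rows with a mean of at least 1 FPKM and adjusted by Benjamini-Hochberg. The rows of the table look selected as changed: in 92.2% of the 2234 rows with both means above 0, 1 group mean was at least 2 times the other. Of the rows tested, 99.0% passed the adjusted p threshold of 0.05, 46.1% as rises and 52.9% as falls. The groups did not overlap in 94.6%, with all H/R samples above all control samples in 42.6% and below them in 52.0%. The median change of all rows tested was -0.80. Passing the test is thus the background state of this table, as is a 2-fold ratio of group means. The direction of a change and its rank among all rows carry more than its call. The depth of the libraries is unknown. Of 16 intestinal epithelial markers, 4 were rows of the table, and their summed level ranged from 236.3 to 327.2 FPKM in control and from 113.7 to 146.0 FPKM after H/R, most of it from the fatty acid binding protein gene FABP1, which fell from 251.0 ± 42.4 to 117.6 ± 16.9 FPKM (SD, n = 3). The label of intestinal epithelium could be checked on these 4 markers and no further.

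The sequence that NF-kB dimers are known to bind, the kappaB site, was searched for near the start sites of NFKB2, CD14 and TNFAIP2 in RefSeq windows of GRCh38.p14 (RELB was not searched), from 250 bases before to 50 bases after each annotated start. The windows are shown for NFKB2, which has matches at 2 of its 3 annotated starts. BCL3 and BIRC3, which are described further on, have matches too. Capitals mark the match to the kappaB consensus on either strand. The first run below is the 250 bases upstream of the third NFKB2 start at chr10:102395455-102395704 on the plus strand, with matches that begin at -176 and -21 relative to the start. The next runs are sites at the second NFKB2 start at chr10:102394463-102394489 (2 overlapping matches, at -107 and -106) and chr10:102394492-102394517 (at -78), the BCL3 site at chr19:44748702-44748727 (at 3), and the BIRC3 sites at chr11:102317277-102317302 (at -199) and chr11:102317341-102317366 (at -135), all on the plus strand.
NFKB2 start 3: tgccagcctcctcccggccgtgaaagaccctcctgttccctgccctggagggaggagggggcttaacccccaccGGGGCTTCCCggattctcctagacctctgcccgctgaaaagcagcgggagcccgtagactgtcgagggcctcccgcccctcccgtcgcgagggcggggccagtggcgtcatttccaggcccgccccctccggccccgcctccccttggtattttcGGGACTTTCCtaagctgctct
NFKB2 start 2, upstream site: aacgtcatGGGAATTCCCCcctccggg
NFKB2 start 2, downstream site: gccgagaaGGGGCTTTCCcggccctg
BCL3: ggctgcagGGGAAGTCCCggcgcccg
BIRC3 upstream site: tgggtcatGGAAATCCCCgagtgggt
BIRC3 downstream site: ttaccgctGGAGTTCCCCtaagtcct

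A match is a description of letters and not a shown binding site, and binding was not measured in these samples. Over the 35116 windows of 27305 genes, 11.3% of windows and 13.3% of genes held a kappaB match. The TNFAIP2 window held neither a kappaB match nor a match to the AP-1 motif TGANTCA. The CD14 window held no kappaB match but 1 AP-1 match, a motif found in 9.37% of genes. Of the genes described further on, F3, IL11 and PLAUR held an AP-1 match as well, and all of them rose. The CD14 match is shown because CD14 went the other way from NFKB2. It stands in capitals on the minus strand of chr5:140633384-140633406, beginning at -223.
CD14: ggggcgccTGAGTCAtcaggaca

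Both subunit genes were higher in every H/R sample than in every control sample. NFKB2 was at 19.18, 16.78 and 16.84 FPKM in control samples 1 to 3 and at 110.02, 90.82 and 79.27 FPKM in H/R samples 1 to 3. Every H/R sample thus stood more than 4-fold above the highest control sample, and the groups did not overlap. The mean went from 17.6 ± 1.37 to 93.4 ± 15.5 FPKM (SD, n = 3), 5.31 times the control level, and NFKB2 rose by 2.33 ± 0.19 (SE) on the log2 scale (limma, adjusted p = 1.4e-05). In bulk RNA, more cells that express a gene and more RNA per cell cannot be told apart. NFKB2 ranked 63 among the 937 rises by log2 change, and its place by FPKM among the 2206 rows moved from 876 in control to 238 after H/R. The sample-to-sample spread, as SD over mean, was 7.78% in control and 16.6% after H/R.

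RELB, the subunit that pairs with p52 and p100, was at 8.79, 7.98 and 7.32 FPKM in control samples 1 to 3 and at 50.7, 33.99 and 34.39 FPKM after H/R. The first H/R sample stood above the other H/R samples, which lay close together, and all were far above control. The mean went from 8.03 ± 0.736 to 39.7 ± 9.53 FPKM, a ratio of 4.94, and RELB rose by 2.15 ± 0.22 (SE) on the log2 scale (limma, adjusted p = 3.83e-05). It ranked 80 among the rises. Both subunit genes passed 2-fold on this scale, as did 707 of the 937 rises (34.8% of all rows tested). Among falls, 816 of 1076 did (40.1% of all rows tested). The spread of RELB was 9.17% of the mean in control and 24.0% after H/R, in both groups wider than that of NFKB2.

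**Figure D1:**
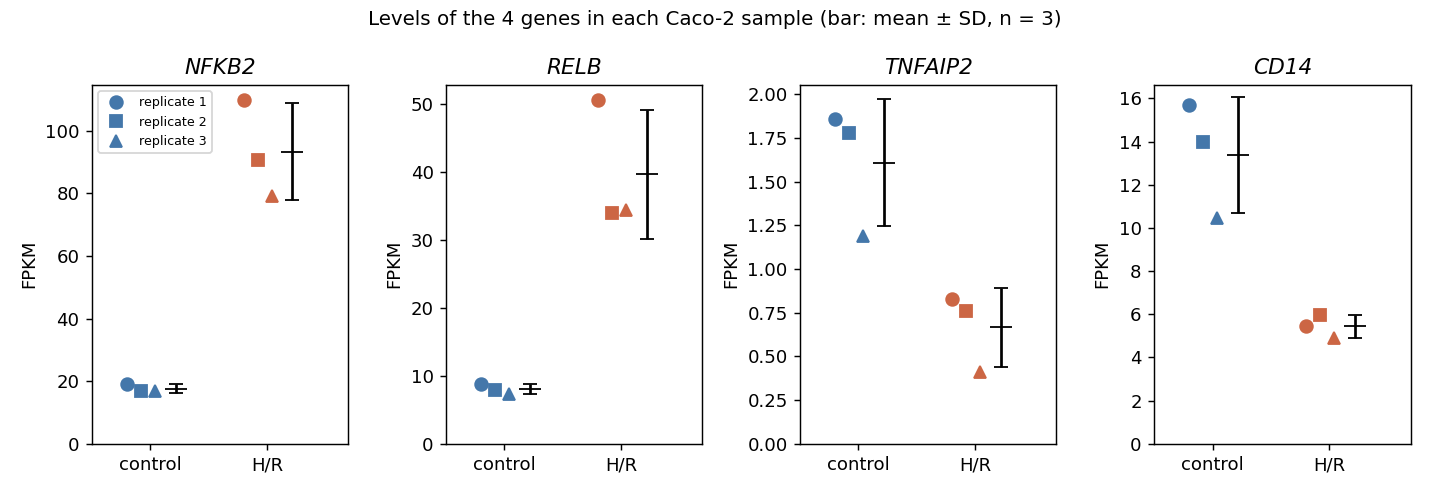
Level of each of the 4 genes in FPKM (vertical axes, linear from 0) in the 3 control and 3 H/R samples. Points are samples, with a shape for each replicate number, and black bars are group means with SD. NFKB2 and RELB were higher in every H/R sample (means 93.4 and 39.7 FPKM against 17.6 and 8.03), and TNFAIP2 and CD14 were lower in every H/R sample.

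NFKB2 and RELB kept a similar proportion in both groups. The RELB level was 0.458, 0.476 and 0.435 of the NFKB2 level in control samples 1 to 3 and 0.461, 0.374 and 0.434 of it after H/R, both levels in FPKM and so per length. The H/R values thus ran from below the control range up into it. The change of RELB was 0.18 smaller than that of NFKB2 on the log2(FPKM + 1) scale (RELB minus NFKB2: -0.18), with p = 0.1 in an exact two-sided permutation test over samples, the smallest p that 3 against 3 samples allow. The difference was thus small beside the rises themselves, and its test could not pass the threshold at this number of samples. It also depended on the 1 added to the FPKM. With 0.1 added instead it was -0.12 (exact permutation p = 0.3), and with 0.01 it was -0.11 (exact permutation p = 0.4). Both mRNAs together came to 27.97, 24.76 and 24.16 FPKM in control and to 160.7, 124.8 and 113.7 FPKM after H/R.

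**Figure D2:**
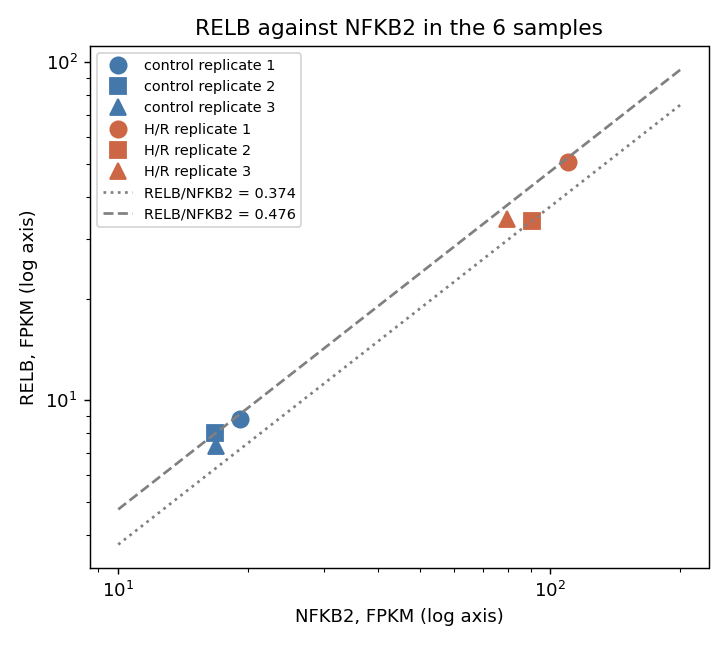
RELB level against NFKB2 level in each of the 6 samples, both in FPKM on log axes, with control and H/R samples in separate colors and grey lines for the lowest and highest ratio. Control samples sit at the lower left and H/R samples at the upper right, and the RELB level is between 0.374 and 0.476 of the NFKB2 level throughout.

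The rows with the profile most like that of each gene were found by the Euclidean distance between log2(FPKM + 1) profiles over the 6 samples, each centred on its own mean. Closest to NFKB2 were SH2D3A, N4BP3 and SH2B3, at distances of 0.134, 0.176 and 0.298. SH2D3A, which encodes an adaptor protein with an SH2 domain, went from 12.6 ± 1.17 to 65.9 ± 11.6 FPKM. RELB was number 4 by closeness to NFKB2 among the other 2033 rows tested. In turn, SLC6A20, SH2D3A and NFKB2 were closest to RELB, at 0.284, 0.297 and 0.318, with SLC6A20 encoding an imino acid transporter. The nearest profiles to CD14 were those of ACSS2 (0.118), which makes acetyl-CoA from acetate, POMZP3 (0.129) and PRODH2 (0.146). Nearest to TNFAIP2 were DPM3 (0.243), FARS2 (0.245) and ABCB9 (0.245). With 6 samples in 2 separated groups, nearness mainly reads a like step between groups and a like order of samples within them. Both are read on the log2(FPKM + 1) scale, where the added 1 shrinks the steps of low genes. Near profiles can thus differ in their FPKM ratio. DPM3 went from 137.6 to 77.7 FPKM, while TNFAIP2 went from 1.61 to 0.667 FPKM. SLC6A20 went from 0.847 to 7.26 FPKM, while RELB went from 8.03 to 39.7 FPKM.

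CD14 and TNFAIP2 went the other way. CD14 was at 15.72, 13.98 and 10.44 FPKM in control samples 1 to 3 and at 5.44, 5.96 and 4.91 FPKM after H/R. The H/R samples lay within about 1 FPKM of each other, and the lowest control sample was above all of them. The mean went from 13.4 ± 2.69 to 5.44 ± 0.525 FPKM, 0.406 of the control level, and CD14 fell by 1.15 on the log2 scale with an SE of 0.22 (limma, adjusted p = 0.000749). It ranked 575 of the 1076 falls by log2 change. Its fall passed 2-fold, as did 816 of the 1076 falls (40.1% of all rows tested). It was larger than the median change of -0.80 over all rows tested, but that median takes rises and falls together. CD14 is used as a marker of monocytes and macrophages, and none of the 14 leukocyte markers listed beside it was a row of the table, so their levels were not analysed. Among the epithelial markers, the levels of FABP1 (above) and of the intestinal alkaline phosphatase gene ALPI, which fell from 33.2 ± 3.72 to 15.3 ± 1.90 FPKM, moved in the same direction as CD14. The other 2 epithelial markers in the table were under the minimum for testing and went opposite ways. The sucrase-isomaltase gene SI was at 1.38 ± 0.363 FPKM in control and 0.48 ± 0.20 FPKM after H/R. The keratin gene KRT20 was at 0.19, 0.35 and 0.43 FPKM in control and at 1.32, 1.68 and 1.61 FPKM after H/R, higher in every H/R sample. The part of these markers in the CD14 result was not tested.

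TNFAIP2 was a low-level gene throughout, at 1.86, 1.78 and 1.19 FPKM in control samples 1 to 3 and at 0.83, 0.76 and 0.41 FPKM after H/R. The lowest control sample was above the highest H/R sample by less than 0.5 FPKM, so the groups stood apart by a narrow gap. The mean went from 1.61 ± 0.366 to 0.667 ± 0.225 FPKM, 0.414 of the control level, and TNFAIP2 fell by 0.65 with an SE of 0.19 on the log2(FPKM + 1) scale (limma, adjusted p = 0.00825). The pseudocount of 1 understates the change at this level, which was -1.18 with a pseudocount of 0.1 (limma, adjusted p = 0.0123). Its mean of 1.14 FPKM was just over the minimum of 1 for testing, and median-of-ratios scaling ended its call (-0.39, limma, adjusted p = 0.0842, the highest of 17 alternatives, whose lowest was 0.00295). The log2 size factor of H/R minus control was -0.52 under that scaling, so dividing by it raised H/R levels against control, and the CD14 change was then -0.68 (limma, adjusted p = 0.0181). Median-of-ratios scaling takes most rows as unchanged, while 99.0% of the rows tested here were called. Its factor therefore cannot tell a difference between libraries from the excess of falls among these rows. On the FPKM ratio, CD14 and TNFAIP2 fell by almost the same factor, to 0.406 and 0.414 of control. The difference between their log2(FPKM + 1) changes was -0.50 (CD14 minus TNFAIP2, exact two-sided permutation p = 0.1), and with a pseudocount of 0.1 it was -0.087 (exact permutation p = 0.7). For all 4 genes taken singly, the exact permutation p was 0.1, the smallest possible.

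The wider pathway was read through 8 lists of NF-kB genes, 164 genes in all, of which 27 were rows of the table and 26 were tested. The lists were chosen with earlier results of these data known. Of the 26 tested genes, 22 rose and 4 fell, which is 84.6% rises against the background of 46.1% over all rows, and their median change was 1.50 against -0.80. No group overlap was seen in any of the 26, which is near the background, since 94.6% of all rows tested had none. Without NFKB2, RELB, TNFAIP2 and CD14, 20 of 22 rose and 2 fell. The other 137 list genes were not analysed here, so these counts describe the listed rows and not the pathway as a whole.

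Of the 5 subunit genes, the 2 in the table rose. Of 15 genes for IkB proteins and feedback inhibitors, 2 were in the table, and both rose (median change 1.07). BCL3, an atypical IkB protein that works in the nucleus with p50 and p52 dimers, was at 26.34, 21.65 and 17.37 FPKM in control and at 58.88, 66.59 and 56.66 FPKM after H/R, and it rose by 1.45 ± 0.20 (SE) on the log2 scale (limma, adjusted p = 0.000163). The other atypical IkB gene, NFKBID, was low, at 1.29 ± 0.179 FPKM in control and 2.77 ± 0.935 FPKM after H/R (log2 change 0.70, limma, adjusted p = 0.00996). No classical IkB gene was among the rows.

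Of 23 genes of the IKK complex and its canonical adaptors, 3 were in the table and all 3 rose, with a median change of 1.22. BIRC3, a ubiquitin ligase that acts in receptor complexes of the canonical arm and keeps the non-canonical kinase NIK low, went from 0.79 ± 0.443 to 4.53 ± 1.80 FPKM (log2 change 1.60). MALT1, the paracaspase that carries antigen receptor signals to IKK, went from 4.71 ± 1.72 to 10.7 ± 3.07 FPKM. RIPK2, the kinase downstream of the NOD receptors, went from 8.70 ± 3.06 to 21.0 ± 2.46 FPKM. BIRC3 also stands on the list of the non-canonical arm, where 2 of 20 genes were in the table and both rose. The other was TNFRSF12A, the receptor for TWEAK and an activator of that arm. It was at 44.57, 51.01 and 28.33 FPKM in control and at 282.7, 249.2 and 164.9 FPKM after H/R, the lowest sample of each group being replicate 3. TNFRSF12A rose by 2.47 ± 0.27 (SE) on the log2 scale (limma, adjusted p = 5.29e-05), an estimate above those of NFKB2 and RELB by less than their SEs added together, and the difference was not tested.

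Receptors were mixed. Of 14 genes listed under the TNF and IL-1 receptor arm, 4 were in the table, and 3 rose and 1 fell. The 3 that rose encode TNF or IL-1 family receptors, and the 1 that fell encodes an IL-17 receptor chain. TNFRSF10B, a death receptor for TRAIL, went from 39.4 to 117.4 FPKM. TNFRSF21, also a death receptor, went from 37.4 ± 2.03 to 98.7 ± 14.3 FPKM, and IL1R2, the decoy receptor for IL-1, from 13.7 ± 2.13 to 30.2 ± 3.91 FPKM. IL17RC, a chain of the IL-17 receptor, fell from 15.8 ± 2.56 to 6.83 ± 1.32 FPKM (log2 change -1.11, limma, adjusted p = 0.000988), close to the change of CD14. Of the 24 genes around CD14 and the Toll-like receptors, only CD14 itself was tested. PELI2, a ubiquitin ligase of that arm, was under the minimum, at 0.26 ± 0.12 FPKM in control and 1.45 ± 0.229 FPKM after H/R.

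Among target genes, 1 of 29 cytokine and chemokine genes was in the table. This was IL11, a cytokine of the IL-6 family, at 0.45 and 0.18 FPKM in control samples 1 and 2, listed at 0 in control sample 3, and at 3.61, 4.44 and 1.99 FPKM after H/R. Of 38 other target genes, 12 had a row, and 10 rose while 2 fell (median change 1.86). Among these 12, TNFAIP8, a regulator of cell death, had the largest change on the log2(FPKM + 1) scale, from 3.16 ± 0.953 to 25.8 ± 6.01 FPKM (log2 change 2.69, limma, adjusted p = 2.95e-05). PTGS2, the inducible cyclooxygenase, went from 1.40 ± 0.695 to 12.35 ± 2.16 FPKM (log2 change 2.51). By the ratio of mean FPKM the order was the other way, 8.82 for PTGS2 and 8.16 for TNFAIP8. The AP-1 subunit gene JUNB went from 18.2 ± 1.64 to 94.4 ± 30.9 FPKM and the transcription factor gene KLF6 from 11.5 ± 2.73 to 60.7 ± 25.0 FPKM, both with wide spread after H/R. IER3, a stress-induced survival gene listed in 5 identical copies that were counted once, went from 4.81 ± 0.325 to 25.2 ± 7.29 FPKM. PLAUR, the urokinase receptor gene, went from 1.19 ± 0.0755 to 7.29 ± 0.350 FPKM, a change of 1.92 that was tight in both groups.

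The remaining risers of that list ranged widely in level. BMP2, a secreted growth factor gene, went from 7.63 ± 1.90 to 28.9 ± 4.36 FPKM, and BCL2L1, whose main product inhibits apoptosis, from 307.3 ± 22.3 to 728.0 ± 97.7 FPKM (log2 change 1.24). The next 3 genes lie outside the naming rule and were picked with their values in view. SDC4, a cell surface proteoglycan, went from 331.4 ± 40.6 to 677.8 ± 115.7 FPKM, and F3, which encodes tissue factor, was low, at 1.95, 4.34 and 4.31 FPKM in control and 5.58, 12.61 and 7.62 FPKM after H/R (log2 change 1.07). CFB, a complement component gene listed in 4 identical copies, fell from 10.07 ± 1.22 to 3.99 ± 0.640 FPKM (log2 change -1.15, limma, adjusted p = 0.000579) and was, with TNFAIP2, the other target that fell.

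**Figure D3:**
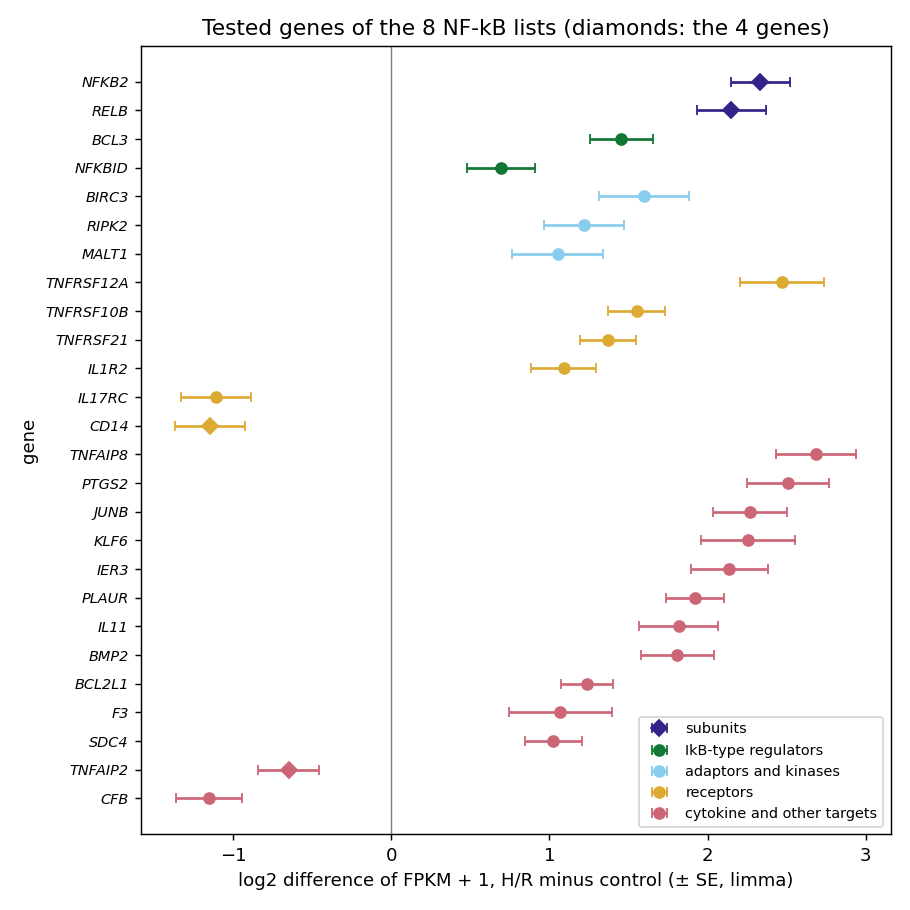
Change of log2(FPKM + 1) from control to H/R (horizontal axis) of the tested NF-kB list genes, colored by role. Points are limma estimates with their SE, and diamonds mark NFKB2, RELB, CD14 and TNFAIP2. In all, 22 of the 26 genes lie above 0, and CD14, TNFAIP2, IL17RC and CFB lie below it.

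Start-site windows were found for 21 of the 27 list genes in the table. A kappaB match was present at 8 of these 21 genes (38.1%), against 13.3% of all genes with a window, and at 10 of their 29 windows (34.5%), against 11.3% of all windows. The 8 genes were BCL3, BIRC3, CFB, IL1R2, NFKB2, NFKBID, PELI2 and SDC4. These include CFB, which fell. Among the list genes that rose, 6 of 16 with a window held a match (37.5%). The AP-1 motif TGANTCA was present at 4 of the 21 genes (19.0%), CD14, F3, IL11 and PLAUR, against 9.37% of all genes. The core letters of the hypoxia response element were searched as ACGTG, present at 5 of 21 genes (23.8%) against 24.9%, and as GCGTG, present at 12 of 21 (57.1%) against 40.6%. Among the 4 genes, ACGTG was present at TNFAIP2 and GCGTG at NFKB2, and RELB was not searched. All motifs were read on both strands, and the lists hold genes known as NF-kB targets, so the lists and the kappaB motif are not independent. The shares over all genes cover every gene with a window and not the rows of this table. They were not matched for the GC content of the windows.

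The 4 genes are rich in G and C, and they shared the sample that was highest in control but not the whole order of samples. The median GC content of their transcripts was 61.2% for NFKB2, 65.3% for RELB, 60.7% for TNFAIP2 and 57.9% for CD14, against 53.7% over the tested rows. Control sample 1 was the highest control sample for all 4 genes, and H/R sample 1 the highest H/R sample for NFKB2, RELB and TNFAIP2, while CD14 was highest in H/R sample 2. Over the whole table the deviation of a sample from its group mean followed GC content. The slope per 10 points of GC was 0.26, -0.0016 and -0.26 on the log2 scale in control samples 1 to 3 and 0.16, -0.032 and -0.12 in H/R samples 1 to 3.

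Among list genes at or above the median GC content, 5 of 13 were highest in sample 1 of both groups (BCL2L1, NFKB2, PLAUR, RELB and TNFAIP2), and among those under it 9 of 13 were lowest in sample 1 of both groups. The shares over all rows were 30.8% of GC-rich rows and 62.2% of GC-poor rows. Over many rows, differences between samples of 1 group therefore moved with GC content, but single genes departed from this. NFKBID, at or above the median GC content, was lowest in sample 1 of both groups. BCL3, JUNB and IL17RC, also GC-rich, lay below their group mean in H/R sample 1 but above it in control sample 1. The part of GC content in the high RELB level of H/R sample 1, and in the group differences, was not tested. Both samples numbered 1 were also left out, a setting chosen after seeing the data. The changes were then 2.27 for NFKB2, 2.03 for RELB, -0.65 for TNFAIP2 and -1.03 for CD14. All were still past the threshold. So were nearly all rows, with 936 rises and 1075 falls among the 2034 tested.

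**Figure D4:**
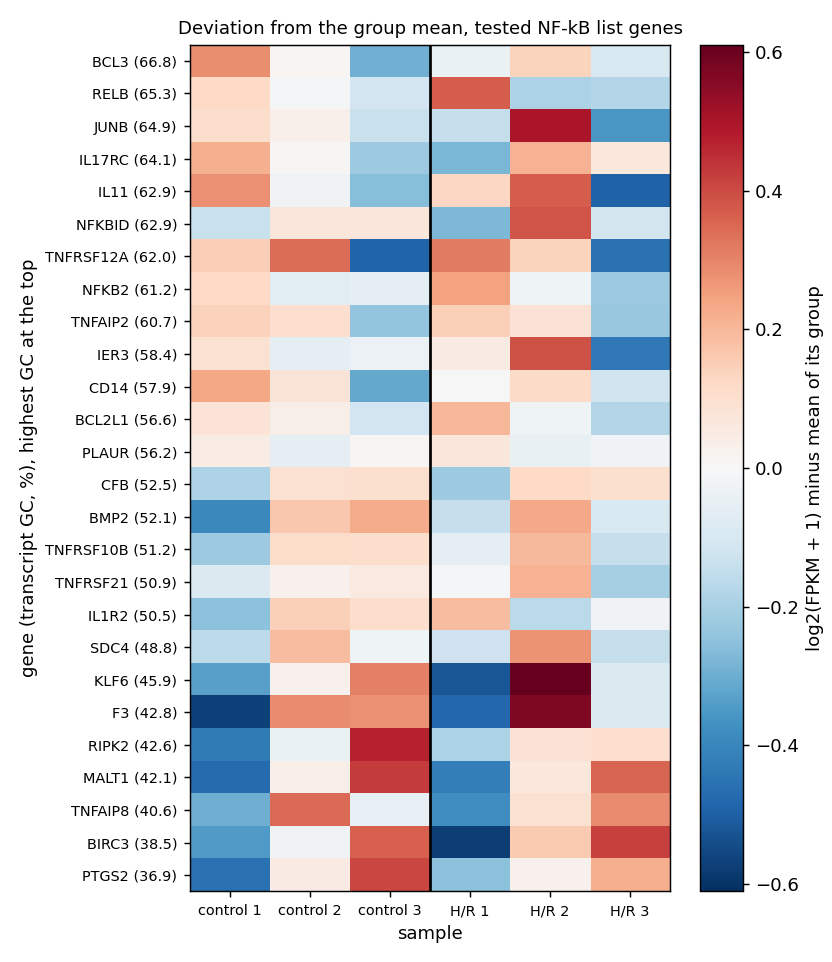
Deviation of each sample from its group mean on the log2(FPKM + 1) scale (color) for the tested NF-kB list genes, ordered by transcript GC content. The GC-rich genes RELB and NFKB2 were high in sample 1 of each group, while the GC-rich JUNB and IL17RC lay below their group mean in H/R sample 1. GC-poor genes tended to be low in sample 1. Over all rows the slopes were 0.26 in control sample 1 and 0.16 in H/R sample 1.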

How the data were processed

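Poly(A) RNA of 3 control and 3 H/R samples was read by paired-end sequencing (150 bp reads). The authors deposited log2 values, which are log2(FPKM + 1): undoing the logarithm gave a multiple of 0.01 FPKM for 100% of values (tolerance 1e-05 FPKM). Methods of alignment, counting and row selection were not given in the sources used here. Of genome builds, GRCm38 and mm10 (both mouse) stand in the submitters' processing notes although the identifiers are human, so coordinates here come only from RefSeq GRCh38.p14. Depth cannot be recovered from this table, and no interval for counting error is given.

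Groups and replicate numbers came from the sample titles. Of 2188 rows with a symbol, 2018 matched RefSeq directly, 137 as numbered copies of a symbol, 23 through an older symbol and 10 not at all; 69 rows are assembled loci. Identical copies (51 rows) were removed, and 172 rows under a mean of 1 FPKM were not tested. The test was limma 3.58.1 in R 4.3.3 (group only, mean-variance trend, two-sided). It was checked on simulated data with independent rows, of which only a minority changed. That check does not cover a table whose rows look selected as changed. Single values were compared by exact permutation (scipy 1.17.1). GC content is that of GENCODE 29 transcripts. Alternatives were pseudocounts of 0.1 and 0.01, no filter, a minimum mean of 5 FPKM, equal total FPKM, median-of-ratios scaling, quantile normalization, an ordinary linear model, a replicate block and leaving out samples; leaving out both samples of 1 number was added after seeing the data.

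The members and lists were chosen with earlier results of these data known. Genes were named by rule: the members, up to 8 genes per list by adjusted p, and the 3 nearest profiles of each member.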

Additional observations from a re-analysis of the deposited data

How the results depend on the processing

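All values rest on 3 samples a group, on rows that look selected as changed and on an unknown depth. The calls of NFKB2, RELB and CD14 held under every alternative run, with changes of 2.21 to 2.83, 1.97 to 2.63 and -1.30 to -0.68. A call is near the background, since 99.0% of the rows tested passed in the main fit. TNFAIP2 missed the threshold only under median-of-ratios scaling (-0.39, limma, adjusted p = 0.0842) and it was not tested at a minimum of 5 FPKM. The CD14 minus TNFAIP2 difference of -0.50 was 0.014 with a pseudocount of 0.01 (exact permutation p = 1). Leaving out 1 sample at a time gave 2.21 to 2.44 for NFKB2, 1.97 to 2.25 for RELB, -0.77 to -0.53 for TNFAIP2, -1.30 to -1.03 for CD14, -0.24 to -0.099 for RELB minus NFKB2 and -0.55 to -0.43 for CD14 minus TNFAIP2. It gave 880 to 942 rises and 1061 to 1075 falls over all rows, and 22 rises and 4 falls on the lists. Scaling moved the rises and falls to 943 and 1003 with equal totals (log2 size factor of H/R minus control -0.35) and to 948 and 846 with median-of-ratios (-0.52), where 3 list genes fell. Both scalings drew their factors only from these rows that look selected. They cannot tell a difference between libraries from the excess of falls. Among list genes, F3 missed the threshold with an ordinary linear model (adjusted p = 0.0672 from that model across all rows). Deviations of samples with the same number correlated at 0.50, 0.072 and 0.52, and H/R sample 2 correlated best with control sample 3 (0.11). Control sample 1 with H/R sample 3 gave -0.49, and control sample 3 with H/R sample 1 gave -0.50. Samples numbered 1 and 3 thus shared part of their deviations across the groups, and samples numbered 2 hardly did. Whether a pairing or a batch lies behind this was not tested. A replicate block gave 946 rises and 1082 falls and changed no call among the 4 genes or the list genes (NFKB2 adjusted p = 1.28e-05 and TNFAIP2 adjusted p = 0.00295, limma).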
